A study of Mus musculus with 6 samples.

Results

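The 8 genes described here, Klf9, Hr, Me1, Thrsp, Ucp3, Ppargc1a, Gpd2 and Slc2a4, are known targets that thyroid hormone raises in various tissues. They were listed by name as known targets, with earlier results of these data already known. The question was whether they fell in muscle stem cells of mice labelled cD2KO, in which the deiodinase gene Dio2 is deleted by design. All 8 were present among the 31053 genes of the count table, and 7 of them were among the 11633 genes tested, with Ucp3 under the expression minimum. At unadjusted p under 0.05 in edgeR, none of the 7 was lower in cD2KO, beside 6.62% of all genes tested. The log2 fold change was negative in 4 of the 7. Slc2a4, which encodes the glucose transporter GLUT4, was higher in cD2KO by 1.76-fold at an unadjusted p-value and not after adjustment in edgeR.

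The libraries came from hindlimb muscle satellite cells of mice aged 3 to 4 months, isolated by FACS for the nuclear GFP that the Pax7nGFP allele places in Pax7-expressing cells. The control group held 3 mice (c124, c129, c130) of the genotype Pax7nGFP/+;Pax7+/+;Dio2Fl/Fl. The cD2KO group held 3 mice (fl125, fl126, fl128) of the genotype Pax7nGFP/+;Pax7-CreERT2/+;Dio2Fl/Fl, in which tamoxifen activates a Cre recombinase expressed from Pax7. Each library was 1 mouse, all 6 mice received tamoxifen, and the floxed Dio2 alleles and the GFP reporter were shared by both groups. The groups therefore differed in the CreERT2 allele as well as in recombination of Dio2, and these differences cannot be told apart in this design.

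Thyroid hormone circulates mainly as the prohormone T4, and type 2 deiodinase, the product of Dio2, converts it inside the cell to the active form T3. T3 binds the nuclear receptors encoded by Thra and Thrb, which sit at response elements built from the core motif AGGTCA and raise transcription of positive targets when occupied. In skeletal muscle the hormone is known for effects on fibre type, mitochondrial energy use, glucose uptake and the activity of muscle stem cells.

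To show what a start-site region of these genes looks like, the 250 bases before the start are given for the member whose window held the core motif, Ucp3, and for Klf9, a member widely used as a readout of T3 action, whose window did not. The sequences are from RefSeq on GRCm38.p6, both on the plus strand, at chr7:100472741-100472990 for Ucp3 and chr19:23140976-23141225 for Klf9, and capitals mark AGGTCA.
Ucp3: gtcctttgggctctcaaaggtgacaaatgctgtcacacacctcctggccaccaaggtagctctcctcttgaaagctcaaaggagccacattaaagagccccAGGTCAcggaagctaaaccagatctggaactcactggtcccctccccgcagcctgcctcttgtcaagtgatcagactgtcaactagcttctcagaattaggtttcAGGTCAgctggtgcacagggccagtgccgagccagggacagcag
Klf9: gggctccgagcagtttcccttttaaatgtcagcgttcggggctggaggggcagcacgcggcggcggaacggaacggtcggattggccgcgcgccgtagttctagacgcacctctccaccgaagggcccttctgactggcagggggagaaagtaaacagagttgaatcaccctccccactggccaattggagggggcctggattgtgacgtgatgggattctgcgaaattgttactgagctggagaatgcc
Windows of 300 bases, from 250 before to 50 after the start, were found for 6 of the 8 genes, and Hr and Slc2a4 were not matched. AGGTCA on either strand occurred in the windows of 1 of these 6 genes, Ucp3, at 149 and 44 bases before the start. It occurred in 16.3% of all 32851 windows. The DR4 arrangement, a direct repeat of AGGTCA with a spacer of 4 bases, occurred in none of the members' windows and in 0.0152% of all windows. A match or its absence describes the letters of a short window and says nothing of receptor binding, which can lie far from the start.

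The libraries held 2184073 to 3897787 counts over genes and 13985 to 15491 detected genes, so that 3 counts, taken as the detection floor, corresponded to 0.768 to 1.36 CPM, counts per 1000000 of the TMM-scaled library size. The library labelled fl125 stood apart on the first principal component, which held 45.1% of the variance, at a score of 72.6, with c129 at -50.7 and the others between -25.2 and 7.52. All 10 muscle stem cell markers of a fixed list were tested, with Chodl and Pax7 the most abundant, at a summed level of 1567 to 2020 CPM in control and 1745 to 2924 CPM in cD2KO. Markers of other cells were also present in every library. The summed level of 9 mural cell markers, led by Acta2 and Myh11, was 5418 to 9267 CPM in control and 11054 to 16246 CPM in cD2KO. That of 8 immune cell markers, led by Lyz2 and Cd74, was 1966 to 4304 CPM in control. In cD2KO it was 134, 1221 and 1500 CPM in fl125, fl126 and fl128, so the lowest value was that of fl125 alone. In bulk libraries of this kind, fewer cells of a type and less RNA per cell cannot be told apart.

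Dio2 itself was too low to check the labels. Its counts were 21, 5 and 10 in control (c124, c129, c130) and 15, 5 and 1 in cD2KO (fl125, fl126, fl128). At 5.38, 1.85 and 3.46 CPM against 6.79, 1.71 and 0.314 CPM, the groups overlapped, and the library labelled fl125 had the highest level of all 6. The means were 3.56 ± 1.77 and 2.94 ± 3.41 CPM (SD, n = 3 each), with an exact two-sided permutation p = 0.7, where the smallest p that 3 against 3 allows is 0.1. Reads were summed over the gene with no value for the floxed segment alone, so a transcript lacking that segment could still be counted.

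Klf9 and Hr encode regulators of transcription. Klf9, Kruppel-like factor 9, is a zinc finger protein induced by T3 and by glucocorticoids, and was abundantly counted here (1145 to 1777 counts). Klf9 was at 455, 533 and 512 CPM in control and at 519, 499 and 398 CPM in cD2KO. The groups overlapped, with fl128 the lowest of all and fl125 between c130 and c129. The mean levels were 499.9 ± 40.2 and 472 ± 64.9 CPM (SD, n = 3 each). The log2 fold change was -0.08 with SE 0.20 (95% interval -0.51 to 0.34, or 0.705-fold to 1.26-fold; edgeR unadjusted p = 0.674, adjusted p = 0.919). Without fl128 the log2 fold change of Klf9 was 0.025.

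Hr, the hairless corepressor that binds the thyroid hormone and vitamin D receptors, had few counts, from 4 to 22 per library. Hr was at 4.10, 1.48 and 2.77 CPM in control and at 9.96, 4.45 and 4.40 CPM in cD2KO. Every cD2KO library was above every control library, opposite to the direction asked for, although fl126 and fl128 lay close to c124. The log2 fold change was 1.11 with SE 0.66 (95% interval -0.30 to 2.53; edgeR unadjusted p = 0.113, adjusted p = 0.541). The exact two-sided permutation p was 0.1, the smallest possible here. Without fl125 the log2 fold change of Hr was 0.67.

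Genes related to these regulators were counted as well. In this and every later list, fell or rose means unadjusted p under 0.05 in edgeR. Of all genes tested, 6.62% were lower and 5.34% higher at that threshold. Of the other Kruppel-like factors of the Klf9 subgroup, 4 of 5 were tested and 1, Klf16, fell, from 12.3 ± 4.31 to 5.47 ± 1.83 CPM (log2 fold change -1.15, SE 0.47; edgeR unadjusted p = 0.0286, adjusted p = 0.361), and the median log2 fold change was -0.49. Of the KDM3 histone demethylases related to Hr together with Vdr, 3 of 4 were tested and none passed in either direction, with a median of -0.55. Glucocorticoids are another hormone input known for Klf9. Their response genes, listed together with their receptor gene Nr3c1, had negative log2 fold changes in 8 of 9, with a median of -0.31. Of these, 2 fell at the unadjusted p-value: the kinase gene Sgk1, from 110 ± 19.1 to 66.7 ± 14.3 CPM (edgeR unadjusted p = 0.0066, adjusted p = 0.194), and the receptor gene Nr3c1, from 98.6 ± 7.24 to 66.0 ± 9.81 CPM (edgeR unadjusted p = 0.0117, adjusted p = 0.248).

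Me1 and Thrsp belong to lipid synthesis. Me1, malic enzyme, supplies NADPH for fatty acid synthesis and is a textbook T3 target in liver. Me1 was at 19.5, 16.2 and 10.7 CPM in control and at 14.5, 19.8 and 22.9 CPM in cD2KO, and the groups overlapped, with c130 the lowest and fl128 the highest. The mean levels were 15.5 ± 4.42 and 19.1 ± 4.27 CPM, a log2 fold change of 0.30 with SE 0.34 (95% interval -0.44 to 1.04; edgeR unadjusted p = 0.395, adjusted p = 0.794).

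Thrsp, thyroid hormone responsive protein, is a regulator of lipogenesis in liver and fat. Thrsp was at 31.2, 36.9 and 64.4 CPM in control and at 28.5, 43.4 and 28.6 CPM in cD2KO. The groups overlapped, and the control mean was set largely by c130. The means were 44.2 ± 17.7 and 33.5 ± 8.59 CPM, a log2 fold change of -0.39 with SE 0.31 (95% interval -1.05 to 0.27; edgeR unadjusted p = 0.224, adjusted p = 0.677), and without c130 the log2 fold change was 0.0096. Among 14 genes of NADPH supply and fatty acid synthesis, all tested, none passed in either direction and the median log2 fold change was -0.04. Of 8 adipocyte markers, 6 were tested and 1, Fabp4, fell. Their summed level, led by Car3 and Fabp4, was 473 to 758 CPM in control and 303 to 544 CPM in cD2KO, and its part in the Thrsp values was not tested.

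Ucp3 and Gpd2 encode mitochondrial proteins, and Ppargc1a a regulator of mitochondrial biogenesis. Ucp3, the uncoupling protein of muscle, had 2, 6 and 0 counts in control and 1, 1 and 2 counts in cD2KO, 12 in all. Only c129, at 2.21 CPM, was above its own floor of 1.11 CPM, so no fold change was given and a difference was not detectable at this depth (exact two-sided permutation p = 0.8). Of 6 uncoupling proteins and carriers around it, 5 were tested and 1, the adenine nucleotide carrier gene Slc25a5, fell from 100.3 ± 10.4 to 67.1 ± 1.37 CPM (edgeR unadjusted p = 0.00934, adjusted p = 0.221), and the median log2 fold change was -0.30.

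Ppargc1a encodes PGC-1 alpha, the coactivator of mitochondrial biogenesis. Ppargc1a was at 12.5, 14.4 and 5.19 CPM in control and at 8.15, 11.97 and 9.11 CPM in cD2KO, so that all 3 cD2KO libraries lay within the control range. The mean levels were 10.7 ± 4.87 and 9.74 ± 1.99 CPM, a log2 fold change of -0.13 with SE 0.46 (95% interval -1.11 to 0.84; edgeR unadjusted p = 0.773, adjusted p = 0.948). The sign changed when c124, c129 or fl125 was left out, reaching 0.15 without c129. Of 14 coactivators and factors of the same pathway, 12 were tested and none passed in either direction, with a median log2 fold change of -0.06.

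Gpd2 is the mitochondrial glycerol 3-phosphate dehydrogenase, an enzyme of the glycerol phosphate shuttle that T3 raises in liver. Gpd2 was at 35.3, 43.2 and 29.4 CPM in control and at 25.8, 33.5 and 25.8 CPM in cD2KO. The groups overlapped through fl126, which lay between c130 and c124, while fl125 and fl128 were below every control library. The mean levels were 36.0 ± 6.91 and 28.4 ± 4.47 CPM, a log2 fold change of -0.34 with SE 0.27 (95% interval -0.91 to 0.23; edgeR unadjusted p = 0.224, adjusted p = 0.677). Leaving out any single mouse kept the sign, between -0.48 and -0.17. Of 9 genes of the glycerol phosphate and malate-aspartate shuttles, 8 were tested, none fell and 2 of the malate-aspartate shuttle rose, with a median log2 fold change of 0.29. Mdh1, the cytosolic malate dehydrogenase gene, rose from 329 ± 18.5 to 499.6 ± 128 CPM (edgeR unadjusted p = 0.0149, adjusted p = 0.274). Got2, the mitochondrial aspartate aminotransferase gene, rose from 151 ± 29.0 to 246 ± 31.0 CPM (edgeR unadjusted p = 0.00459, adjusted p = 0.169).

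**Figure D1:**
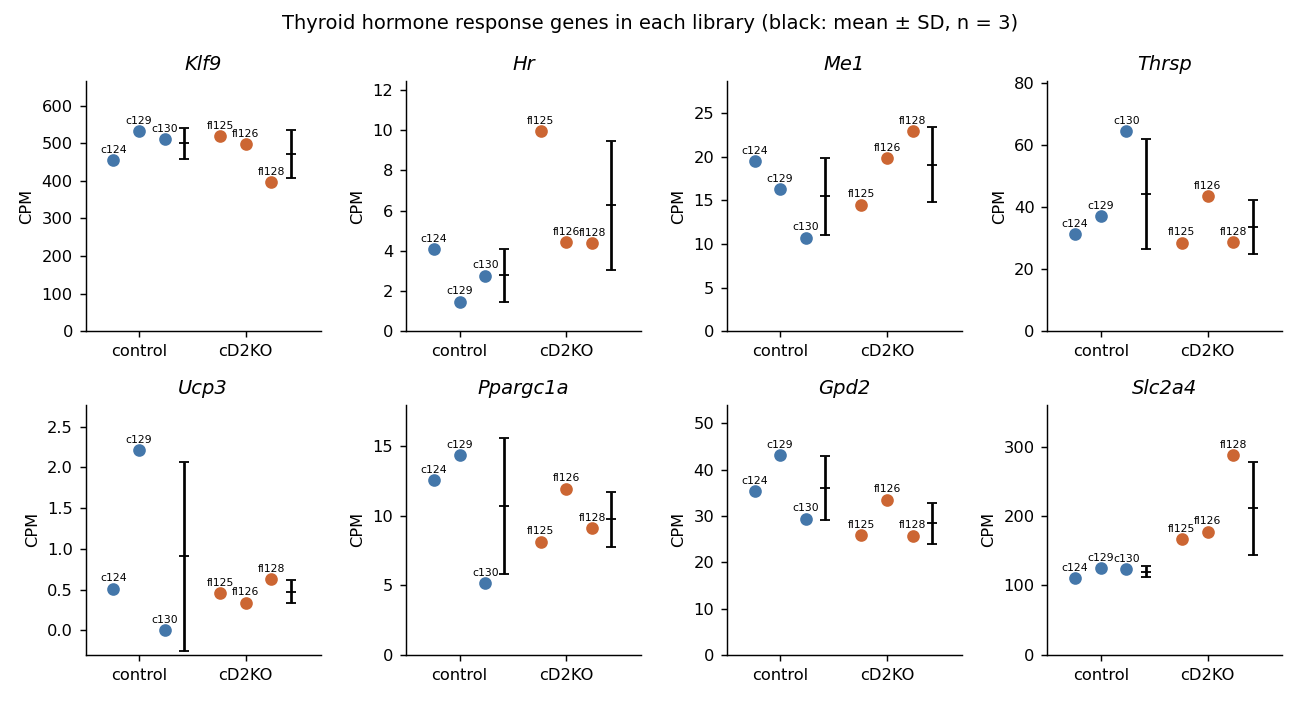
Level in CPM of each of the 8 genes in each library (blue, control; orange, cD2KO), with the group mean ± SD (n = 3) in black and a separate linear scale for each gene. In Hr and Slc2a4 all cD2KO points lie above all control points, the other genes overlap, and Ucp3 stays at or below 2.21 CPM.

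Slc2a4 encodes GLUT4, the insulin-regulated glucose transporter of muscle and fat, and T3 is known to raise it in skeletal muscle. Slc2a4 was at 111, 126 and 123 CPM in control and at 167, 177 and 288 CPM in cD2KO. The groups did not overlap, the control libraries lay close together, and fl128 stood well above the rest. The mean levels were 119.9 ± 7.88 and 211 ± 67.2 CPM, a log2 fold change of 0.82 with SE 0.23 and a fold change of 1.76 (95% interval 1.26 to 2.47). The unadjusted p was 0.00299 and the adjusted p over all genes was 0.146 in edgeR, so Slc2a4 passed the unadjusted threshold and not the adjusted one. DESeq2 gave an adjusted p of 0.0450 and limma voom 0.179. Without fl128 the log2 fold change was 0.52 (edgeR unadjusted p = 0.0239, adjusted p = 0.427).

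Some markers of other cells were also higher in cD2KO. The summed mural markers were 9267, 5418 and 6810 CPM in c124, c129 and c130, and 11054, 11857 and 16246 CPM in fl125, fl126 and fl128. These sums separated the groups as Slc2a4 did, with fl128 the highest of both. Within control the order was reversed, with c124 highest in the sum and lowest in Slc2a4 and c129 lowest in the sum and highest in Slc2a4. In that list 4 of 9 genes rose (Acta2, Myh11, Tagln and Cnn1, which encode contractile proteins of smooth muscle) and none fell. The other 5 did not pass, among them Rgs5, Pdgfrb, Abcc9 and Kcnj8 with log2 fold changes of 0.0025, -0.06, -0.23 and -0.36. No mural marker was at 0 in any library. The summed level of 12 mature muscle fibre markers, led by Acta1 and Tnnc2, was 2282 to 5068 CPM in control and 4152 to 7919 CPM in cD2KO. The library fl128 was again the highest. The log2 fold change was negative in 0 of the 12, with a median of 0.54, and 1 gene, Myh2, rose at unadjusted p under 0.05 in edgeR. Muscle stem cell markers gave 3 that rose (Itga7, Cdh15 and Myf5) and none that fell, but fl128 was lowest among the cD2KO libraries in their sum. The log2 fold change was negative in 4 of these 10 markers, with a median of 0.27. The part of these cells in the Slc2a4 result was not tested.

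**Figure D2:**
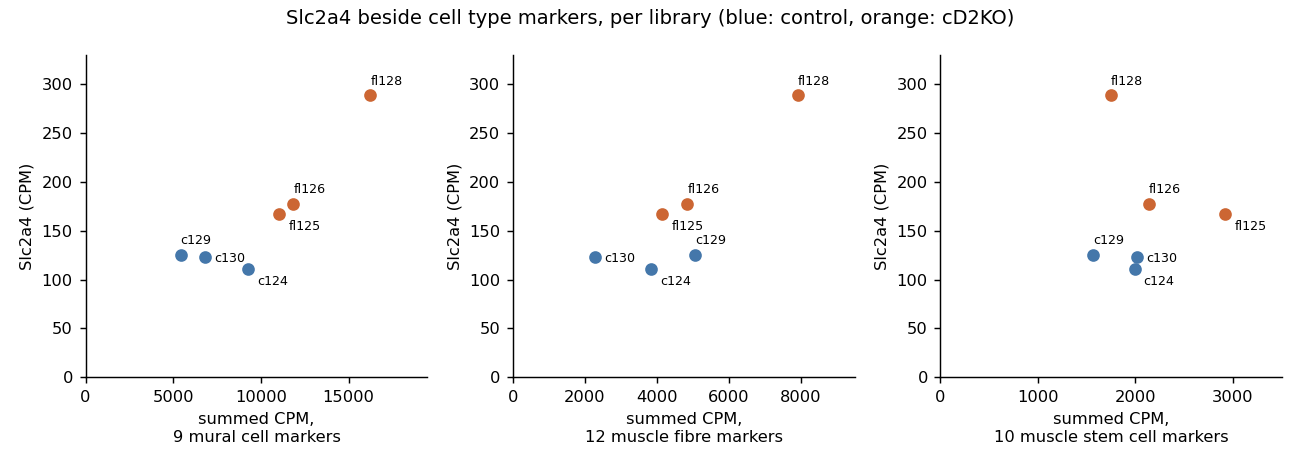
Slc2a4 level in CPM (vertical axis) against the summed CPM of 9 mural cell, 12 muscle fibre and 10 muscle stem cell markers (horizontal axes), 1 point per library. The library fl128 is highest in Slc2a4 and in the first 2 sums (16246 and 7919 CPM), and has the lowest muscle stem cell sum of the cD2KO group (1745 CPM).

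The other genes of glucose transport and GLUT4 handling were counted in the same way. Of 17 listed, 16 were tested, with a median log2 fold change of 0.07. None fell, against 6.62% of all genes tested, and 1 rose, against 5.34%. Vamp2, a vesicle fusion protein gene, rose from 220 ± 40.8 to 338 ± 85.3 CPM (log2 fold change 0.62, SE 0.23; edgeR unadjusted p = 0.0164, adjusted p = 0.289).

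Side by side, the members lay on both sides of no change. At unadjusted p under 0.05, 0 of 7 tested members were lower in cD2KO, against 6.62% of all genes tested, and 1 was higher, against 5.34%. With scaling by total counts alone, 945 genes were lower and 445 higher, in place of 770 and 621, and the member counts were again 0 and 1. DESeq2 and limma voom also gave 0 lower and 1 higher member. At adjusted p under 0.05 in edgeR no member passed, and over all genes 0 fell and 1 rose. By complete separation of the 3 against 3 libraries, 0 members were lower, against 10.04% of all genes, and 2 were higher, against 8.05%. The log2 fold change was negative in 4 of 7, with a median of -0.08, beside -0.02 over all genes tested. The 95% intervals were widest for the low genes, 0.813-fold to 5.76-fold for Hr and 0.463-fold to 1.79-fold for Ppargc1a. The narrowest was that of Klf9, at 0.705-fold to 1.26-fold.

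**Figure D3:**
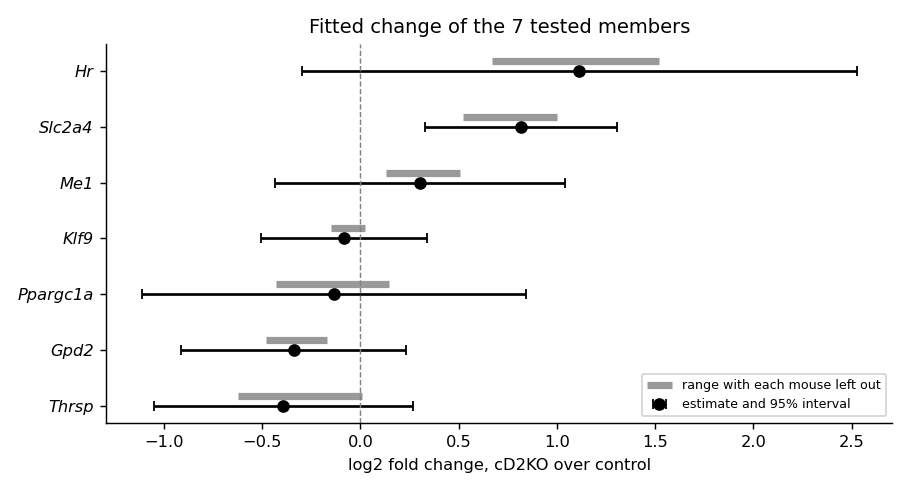
Log2 fold change (cD2KO against control) of the 7 tested members from edgeR, with 95% intervals (3 mice per group). The interval of Slc2a4 (0.33 to 1.31) lies above 0 and those of the other 6 members include 0.

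The genes that handle the hormone were examined from a list of 11 deiodinases, receptors, transporters and the cytosolic binder Crym, of which 7 were tested. Of these 1 fell, Slc16a10, a transporter of aromatic amino acids and thyroid hormone, from 7.89 ± 3.15 to 3.07 ± 0.555 CPM (log2 fold change -1.37, SE 0.58; edgeR unadjusted p = 0.0332, adjusted p = 0.377). None rose, and the median was -0.24. The receptor gene Thra had a log2 fold change of 0.39 with SE 0.18 (edgeR unadjusted p = 0.0556, adjusted p = 0.436), and Thrb of -0.70 (edgeR unadjusted p = 0.181, adjusted p = 0.634).

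A wider list of 21 other genes that T3 raises in muscle or elsewhere was also examined. Of these 18 were tested. In edgeR 1 fell at unadjusted p under 0.05, against 6.62% of all genes tested, and none rose, against 5.34%. The gene that fell was Slc16a6, a monocarboxylate transporter gene, from 25.2 ± 4.96 to 10.98 ± 6.71 CPM (log2 fold change -1.16, SE 0.43; edgeR unadjusted p = 0.0181, adjusted p = 0.305). The sign was negative in 6 of the 18, beside 6038 of all 11633 genes tested. The median log2 fold change was 0.23, beside -0.02 over all genes tested. Ucp1 and Fgf21 had no counts in any library. Some genes of this list also belong to the muscle fibre, fatty acid synthesis, uncoupling and mitochondrial biogenesis lists above, so these lists are not independent. By the same threshold and beside the same shares, endothelial, immune and fibroadipogenic progenitor markers had 5 of 9, 4 of 8 and 2 of 7 genes lower in cD2KO and none higher. Mural, muscle fibre and muscle stem cell markers had 4 of 9, 1 of 12 and 3 of 10 genes higher and none lower. The part of all these cells in the values of these lists was not tested.

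**Figure D4:**
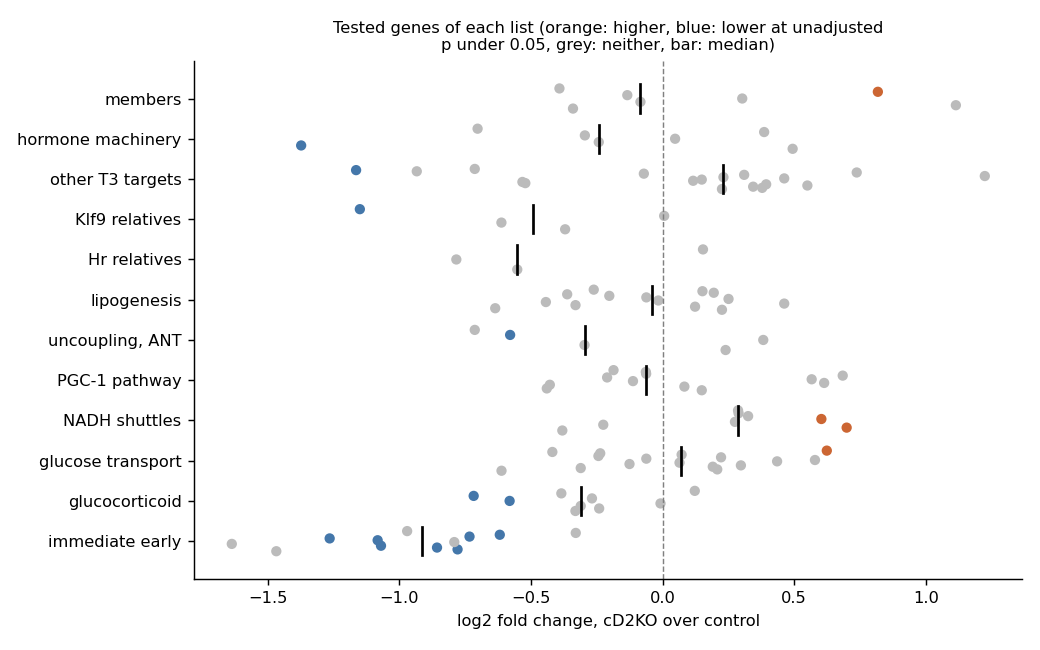
Log2 fold change (cD2KO against control, edgeR) of each tested gene in the member list and the lists around it, 1 point per gene, with the median of each list. The median of the members (-0.08) lies near 0, that of the other T3 targets (0.23) lies above 0, and the 12 immediate early genes all lie below 0.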

How the data were processed

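RNA-seq was available from 6 libraries, 3 control and 3 cD2KO, each from 1 mouse. The deposited table held raw counts per gene, which the authors made with STAR 2.6.0a and HTSeq 0.9.1 per the submitters' processing notes, on mm10. The annotation, strand setting and treatment of duplicates are not given in the sources used here, so antisense overlaps of Me1, Ucp3 and Gpd2 cannot be separated. Gene symbols were matched for 30934 of 31053 identifiers. Genes with a mean normalized count above 10, the study's minimum, were fitted with edgeR 4.0.16 (R 4.3.3; TMM, robust quasi-likelihood test) and called at unadjusted p under 0.05, with Benjamini-Hochberg values beside. CPM used TMM-scaled library sizes. Intervals are 95%. Changes are described as cD2KO relative to control. Single genes below the minimum had exact permutation tests. DESeq2 1.42.0 and limma 3.58.1 (voom) were alternatives. No pair of libraries agreed within sampling noise (lowest chi-square per degree of freedom 8.69). All mice read as male. The members and lists were chosen with earlier results of these data known. Named genes were the members, Dio2, up to 3 called genes per direction in each pathway list, the 3 genes most like Klf9 and Hr, and the 2 most abundant markers of each cell type, except 1 list that is not reported here. Other markers, among them Rgs5, Pdgfrb, Abcc9 and Kcnj8, and Thra, Thrb, Crym, Ucp1, Fgf21 and Vdr were named after their values were seen.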

Additional observations from a re-analysis of the deposited data

How the results depend on the processing

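The member counts, 0 lower and 1 higher, were the same under every other tool, scaling and minimum tried and with each mouse left out (0 to 0 lower, 1 to 1 higher). The members tested were 4 with a mean above 50 and 8 with no minimum, in place of 7. At adjusted p under 0.05 in the main edgeR fit the member counts were 0 lower and 0 higher, with 0 genes lower and 1 higher over all genes. Slc2a4 did pass that threshold in DESeq2 (adjusted p = 0.0450). It also passed in edgeR with no minimum (adjusted p = 0.00971) and without fl125 (adjusted p = 0.0267). Leaving out a mouse moved the count of lower genes between 408 (without c129) and 866 (without fl125), and of higher genes between 406 (without fl128) and 934 (without fl125), from 770 and 621, and the cause was not tested. With no minimum 939 genes were higher, over more genes tested, and with a mean above 50, where fewer genes were tested, 505 were lower. Slc2a4 kept its direction and passed the unadjusted threshold throughout, at log2 fold changes of 0.52 to 0.999 with a mouse left out and 0.74 to 0.86 otherwise, while its adjusted p ran from 0.00971 (no minimum) to 0.483 (without c129). Signs turned for Klf9 (-0.15 to 0.025), Thrsp (-0.63 to 0.0096) and Ppargc1a (-0.43 to 0.15) with a mouse left out. Hr, with 4 to 22 counts, and Ucp3, with 12 counts in all, rested on few counts. A sex covariate was not run because all mice read as male. No paired analysis was possible because the labels give mouse numbers that the groups do not share.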

Other observations

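Immediate early and stress genes, which tissue dissociation is known to raise, had negative log2 fold changes in 12 of 12, at a median of -0.91 on the log2 scale, and 7 fell at unadjusted p under 0.05. Dusp1, a phosphatase gene, fell from 255 ± 97.9 to 149 ± 18.5 CPM (edgeR unadjusted p = 0.00991, adjusted p = 0.227). Hspa1b, a heat shock protein gene, fell from 1492 ± 829 to 705 ± 227 CPM (edgeR unadjusted p = 0.0257, adjusted p = 0.354). Ier2 fell from 90.3 ± 65.9 to 37.4 ± 5.42 CPM (edgeR unadjusted p = 0.0282, adjusted p = 0.360). The summed level of the list was 4042, 12594 and 6665 CPM in c124, c129 and c130, and 3501, 5189 and 3636 CPM in fl125, fl126 and fl128, so that c129 was far above the others and c124 lay within the cD2KO range.

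Fibroadipogenic progenitor markers, led by Dcn and Gsn, summed to 3752 to 6206 CPM in control and 2274 to 5007 CPM in cD2KO. Endothelial markers, led by Esam and Flt1, summed to 249 to 381 CPM in control and 200 to 248 CPM in cD2KO. This endothelial sum mixed opposite directions. Esam was higher in every cD2KO library than in any control library, at a log2 fold change of 0.32, but did not pass at unadjusted p under 0.05 in edgeR. Flt1 fell, at a log2 fold change of -1.71. The log2 fold change was negative in 7 of the 9 endothelial markers, with a median of -1.24.

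Across the 6 libraries, the genes whose log2 CPM moved most like that of Klf9 were Flnc (Pearson r = 0.989), Scx (0.984) and Ncapd3 (0.981). Those most like Hr were Specc1l (0.995), Gjb1 (0.993) and Ryr3 (0.990). These are descriptions over 6 points, chosen as the highest of all genes tested.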
